A study of Brassica oleracea with 12 samples.

Results

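In the variegated kale line 'JC007-2B', 36 genes were near silent in the green leaf margin while being transcribed in the white leaf center. They were chosen by their measured values in leaves at the variegated leaf stage. All 3 libraries of the green margin (S3_S) lay under 1 FPKM, and all 3 libraries of the white center (S3_C) were at 3 FPKM or more. FPKM counts fragments scaled by transcript length and by the number of fragments mapped in the library. In addition, no KEGG pathway was annotated for these genes. The rule found 36 of the 40744 rows without a pathway, in a table of 45325 rows. With the pathway condition dropped, 38 rows were found. The 2 further rows were *UXS6*, a UDP-xylose synthase, and *APK3*, an adenosine-5'-phosphosulfate kinase.

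The line is a double haploid of ornamental kale (*Brassica oleracea* var. *acephala*) that keeps white centers and green margins after chilling. RNA was profiled in 4 groups of 3 libraries each. They were S3_C, S3_S, leaves at the albino stage (S2) and leaves at the green leaf stage (S1). Leaves at the albino stage show white in the center and keep a small green part at the margin. The paper reports lower chlorophyll and carotenoid contents at the albino stage than at the green or the variegated leaf stage. S2 and S1 leaves were labelled as sampled without veins, and for the center and margin pieces the labels do not mention veins. All groups come from 1 genotype, so no allele separates them. Color and leaf position differ together between S3_C and S3_S and cannot be told apart. In the paper S2 follows a period of chilling, so growth stage, chilling and whitening differ together between S2 and S1. These cannot be told apart either.

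White sectors of variegated leaves hold plastids that lack a developed thylakoid system, and they live on sugars imported from green tissue. A leaf center also differs from a margin in anatomy, since major veins run through it. Vein tissue carries xylem, whose cells lay down a secondary wall of cellulose, xylan and lignin. In bulk RNA, fewer cells of a type and less RNA per cell cannot be told apart.

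The levels that chose the genes are given here as a description only. The mean over 3 libraries of a gene in S3_C was 3.23 to 25.9 FPKM (median 5.501), against 0 to 0.793 FPKM (median 0.482) in S3_S. Near the limits, *Bo6g119010* and the gene spanning *Bo6g094370* and *Bo6g094380* lay just inside with a highest S3_S value of 0.971 and 0.952 FPKM. *Bo1g102020* and MSTRG.8794, at 1.005 and 1.01 FPKM in their highest S3_S library, lay just outside. On the other limit, MSTRG.35614 and *Bo1g108500* lay just inside with a lowest S3_C value of 3.03 and 3.09 FPKM. *Bo7g062120* and *CESA4*, a cellulose synthase subunit of secondary walls, lay just outside with 2.97 and 2.95 FPKM. Genes written here by an identifier that begins with MSTRG come from transcripts that the authors assembled, and carry no gene name.

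Annotation of these genes was sparse, as it was for all rows without a pathway. A gene name was given for 30 (83.3%, against 82.8% of all rows without a pathway). A description was given for 9 (25%, against 21.3%) and a GO term for 17 (47.2%, against 45.2%). For 12 genes no transcript of the reference was included (33.3%, against 29.3%), so the values of those come from assembled transcripts alone. Identifiers beginning Bo4g were carried by 8 of the 36 (22.2%), against 9.25% of all rows without a pathway, a difference that was not tested. Among the 17 genes with GO terms, 6 were annotated as integral membrane proteins, 3 to DNA binding, 2 to protein kinase activity, 2 to metal ion transport and 2 to lignin catabolic process. Of all 22656 rows with GO terms, 28.2%, 8.68%, 6.24%, 0.596% and 0.088% carry these terms, in the same order. The counts were not tested against these shares. The last term is carried by 20 rows of the whole table.

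The libraries of S1 and S2 were not used by the rule, and show where else these genes were transcribed. In S2, 25 of the 36 were at 1 FPKM or more in all 3 libraries and 6 were at 3 FPKM or more in all 3. In S1, 12 were at 1 FPKM or more in all 3 libraries, 11 were under 1 FPKM in all 3, and the other 13 had libraries on both sides of 1 FPKM. The mean over 3 libraries of a gene in S2 was 0 to 54.7 FPKM (median 3.09), against 0.0953 to 93.4 FPKM (median 1.47) in S1. A low rank of S3_S and a high rank of S3_C among the groups are largely set by the rule. The exceptions to a highest mean in S3_C were *Bo5g054730* and *Bo2g138720*, with the highest mean in S2, and *Bo8g108840*, with the highest mean in S1. Thus some of these genes were low in green S1 leaves and others were not.

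**Figure D1:**
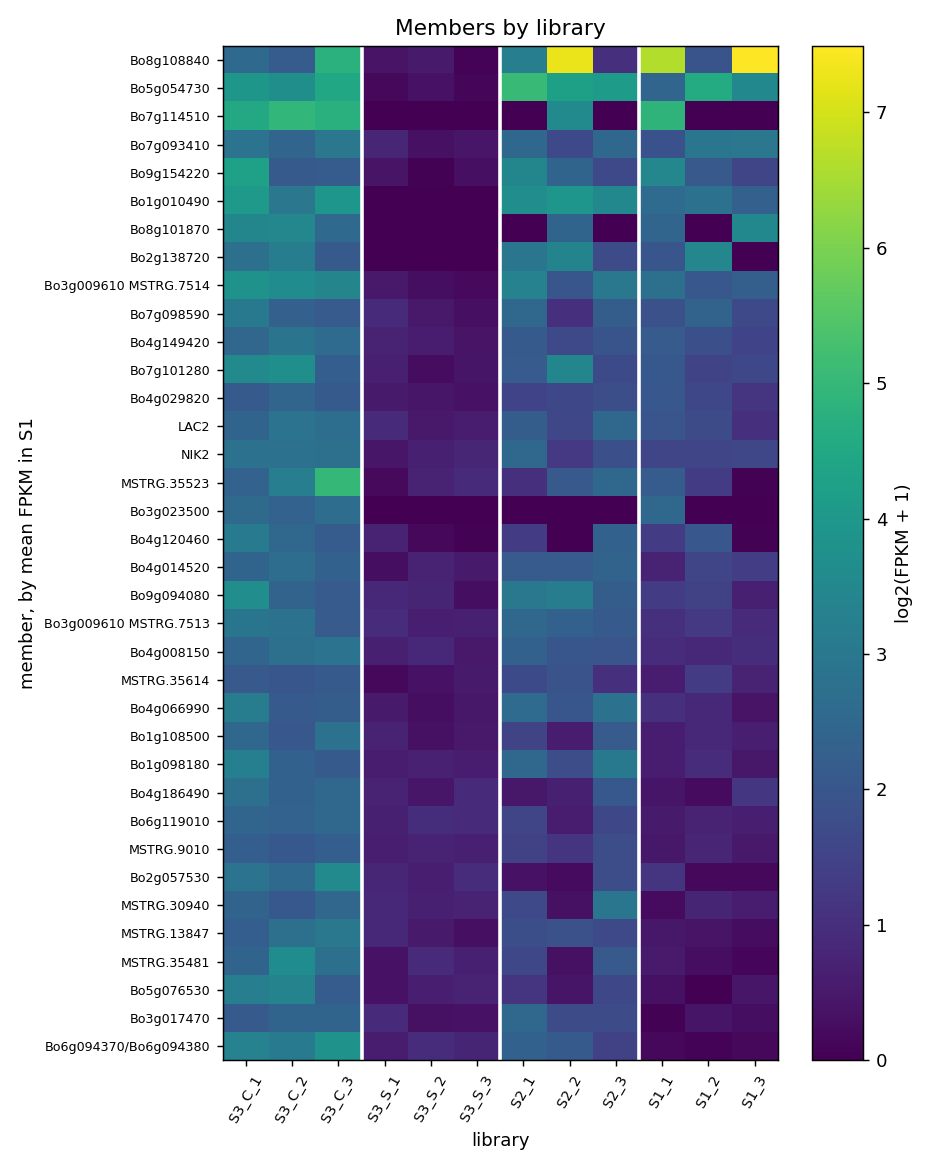
Level of each of the 36 genes as log2(FPKM + 1) (color) in the 12 libraries (columns, grouped as S3_C, S3_S, S2 and S1), with genes in rows ordered by their mean in S1. The S3_C and S3_S columns were fixed by the choice of genes. In the lower rows S1 is as dark as S3_S, and in the upper rows it is not.

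Scale matters for a comparison of S2 with S1, and also for the rule. The median FPKM over all rows was 1.16 to 1.48 in the S2 libraries, against 0.741 to 0.889 in the S1 libraries. It was 1.51 to 1.60 in the S3_C libraries, against 1.10 to 1.22 in the S3_S libraries. With median-of-ratios scaling before the rule, 18 genes were found. In the fit of S2 against S1 with limma on log2(FPKM + 1), the 42771 genes tested had a median log2 fold change of 0.21, and after median-of-ratios scaling between libraries it was 0.02. FPKM sums were 429278 to 461587 over the 12 libraries and do not show depth. Relative depth, read from the smallest steps of low values, was 1.17 to 1.36 in S3_C, 0.904 to 1.21 in S3_S, 1.02 to 1.23 in S2 and 1 to 1.31 in S1, with the first S1 library as the unit. Of the marker lists, xylem had 4 of 10 genes named in the table, phloem 1 of 6, epidermis 1 of 8, dividing cells 5 of 5, senescence 0 of 2 and mesophyll 1 of 3. The mesophyll marker *CA1*, a carbonic anhydrase of chloroplasts, was at 0.447 to 0.649 FPKM in S3_C, against 343 to 2022 FPKM in S3_S. For this 1 gene the S3_C and S3_S libraries did not overlap. In S2 it was at 72.9 to 490 FPKM, against 172 to 3652 FPKM in S1, with overlapping libraries. The 5 markers of dividing cells summed to 15.8 to 20.2 FPKM in S2, against 37.5 to 56.3 FPKM in S1, mostly from the mitotic cyclin *CYCB1;1*, while the meristem markers *STM* and *KNAT1* were under 0.1 FPKM in each library. The part of dividing cells in the difference between S2 and S1 was not tested.

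All 36 genes were above 0 in at least 1 S2 or S1 library and were tested. The threshold, that of the study's methods, asked for a log2 fold change beyond 1 in either direction together with p under 0.05 before adjustment. Of the 36, 9 passed it with higher values in S2 (25%), against 7.02% of all genes tested, and 0 with lower values, against 2.04% of all genes tested. Their median log2 fold change was 0.69. With Benjamini-Hochberg adjustment in limma, 0 of the 36 came under 0.05, against 0.00234% of all genes tested, which is 1 gene, while 11 of the 36 had an unadjusted p under 0.05 (30.6%), against 20.7% of all genes tested. The ordinary linear models also gave 0. A limma fit to all 12 libraries gave 11, against 8.52% of all genes tested, but takes its spread also from the S3_C and S3_S values that chose the genes. In the linear model with the library-size covariate of Ballgown, the tool of the study, 3 of the 36 passed the threshold with higher values in S2, against 1.33% of all genes tested, and 2 with lower values, against 1.05%. Only 1 of the 9 genes passed there, and the median log2 fold change of the 36 was −0.43. After median-of-ratios scaling 6 of the 36 passed the threshold with higher values in S2 (16.7%), against 2.46% of all genes tested. That scaling turned the balance over all genes past the threshold, of which 36.5% were then higher in S2, against 77.5% for the values as deposited. Each S2 library lay above each S1 library for 11 of the 36 genes (30.6%), against 23.8% of all genes tested. The reverse was found for 0 of the 36, against 4.32%.

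**Figure D2:**
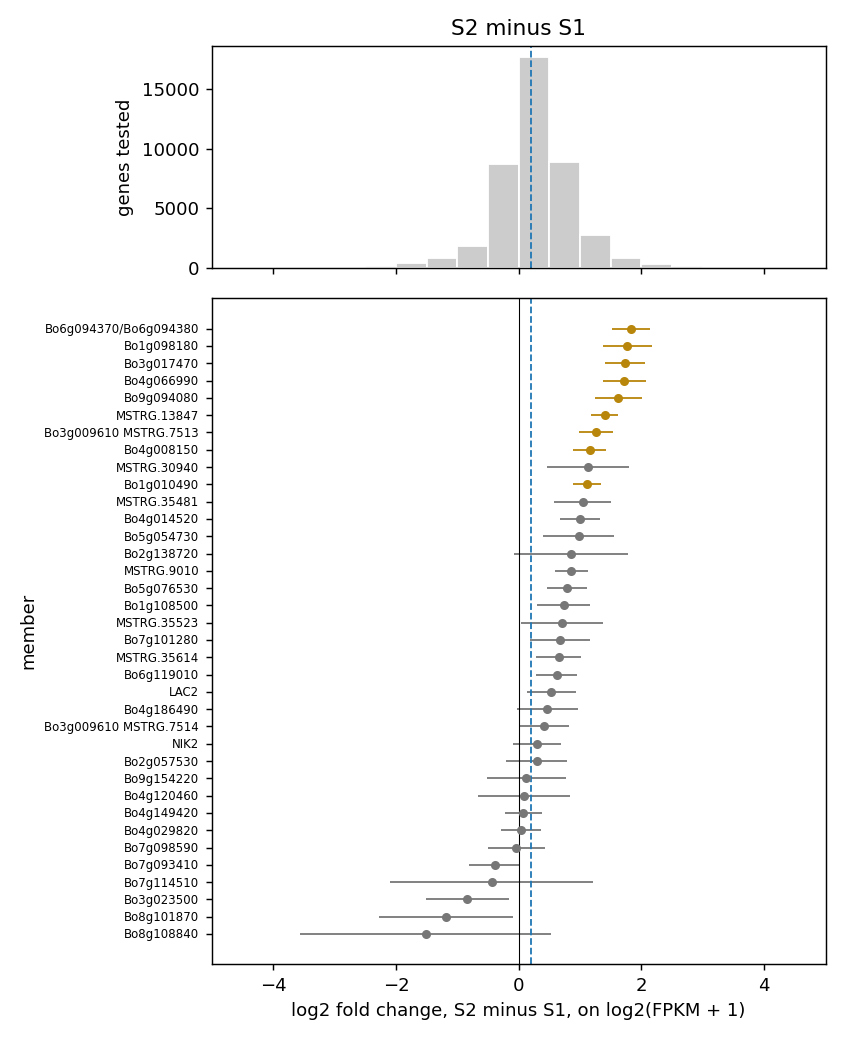
Upper panel, number of genes tested by log2 fold change of S2 minus S1 in bins of 0.5; lower panel, the same fold change for each of the 36 genes with its standard error (bars). Gold points are the 9 genes past the threshold, gray points the others, and the dashed line is the median of all genes tested, 0.21; 30 of the 36 lie above 0 and 26 above the dashed line.

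The largest difference was that of the gene spanning *Bo6g094370* and *Bo6g094380*, projected from an *Arabidopsis* protein of unknown function (DUF1423) and annotated to cell fate specification and embryonic meristem initiation. It was at 9.07, 7.68 and 13.5 FPKM in S3_C, against 0.487, 0.952 and 0.697 FPKM in S3_S. Its S2 values were 4.06, 3.32 and 1.70 FPKM, against 0.107, 0.0526 and 0.126 FPKM in S1. Every S2 library lay above every S1 library, and the S1 libraries lay even below those of S3_S. S2 exceeded S1 by 1.83 on the log2 scale, with a standard error of 0.30 (limma, adjusted p = 0.0976).

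Auxin response factors are transcription factors that bind the promoters of auxin-regulated genes. *Bo4g008150*, described as an auxin response factor, was at 4.43, 5.80 and 6.26 FPKM in S3_C, against 0.582, 0.784 and 0.420 FPKM in S3_S. In S2 it was at 4.01, 2.97 and 2.91 FPKM, against 0.935, 0.820 and 0.977 FPKM in S1. The spread within each group was small here, and the S2 and S1 libraries did not overlap. The difference on the log2 scale was 1.16, with a standard error of 0.27 (limma, adjusted p = 0.118), and the gene did not pass the threshold after median-of-ratios scaling. Of the 29 rows described as auxin response factors, it was the only 1 found by the rule, and 6 had all S3_S libraries under 1 FPKM. Each S3_C library lay above each S3_S library for 17 of the 29, against 24.4% of all genes above 0 in S3. The reverse was found for 0 of the 29, against 6.35%. For *Bo4g008150* itself both outcomes were fixed by the rule, so these counts are no test.

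The other annotated genes of transcription did not pass the threshold. *Bo6g119010*, annotated to DNA binding and regulation of transcription, was at 1.96, 0.511 and 2.11 FPKM in S2, against 0.462, 0.692 and 0.543 FPKM in S1, with overlapping libraries. The same name stands on another assembled gene outside the 36, which was at 3.29 to 8.03 FPKM in S3_C, against 1.39 to 2.04 FPKM in S3_S. *Bo7g098590*, annotated to DNA binding only, was at 4.71, 1.07 and 3.63 FPKM in S2, against 2.59, 4.24 and 2.14 FPKM in S1. It was thus transcribed in green S1 leaves at levels like those of S2. *Bo3g023500*, described as a C2H2-like zinc finger protein, is treated below with the genes listed at 0.

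Laccases are secreted copper enzymes that oxidize the precursors of lignin in the walls of xylem cells. The 2 laccases among the genes were detected in every library, at lower levels in the margin. *LAC2* was at 4.30, 6.17 and 5.54 FPKM in S3_C, against 0.846, 0.429 and 0.503 FPKM in S3_S, and at 3.63, 1.99 and 4.74 FPKM in S2, against 2.91, 2.29 and 1.03 FPKM in S1. *Bo4g029820*, described as a laccase, was at 3.34, 4.49 and 3.35 FPKM in S3_C, against 0.450, 0.366 and 0.293 FPKM in S3_S. Its values were 1.85, 2.06 and 2.498 FPKM in S2, against 3.09, 2.11 and 1.22 FPKM in S1. For both laccases S2 and S1 overlapped, with log2 fold changes of 0.53 (adjusted p = 0.484 from limma) and 0.04 (adjusted p = 0.955 from limma).

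The xylem markers that the table names were also lowest in the margin. They were *CESA4* and *CESA8*, cellulose synthases of the secondary wall, *IRX9*, which acts in xylan synthesis, and *XCP1*, a protease of xylem cells. Their summed level was 10.5 to 15.5 FPKM in S3_C, against 2.22 to 3.81 FPKM in S3_S, and 7.51 to 12.8 FPKM in S2, against 7.56 to 13.1 FPKM in S1. For 4 of 4, each S3_C library lay above each S3_S library, against 24.4% of all genes above 0 in S3, and none of them was at 0 in any library. The only phloem marker named, *SEOR1*, a protein of sieve elements, overlapped at 2.09 to 3.89 FPKM in S3_C, against 0.241 to 3.10 FPKM in S3_S. The only epidermis marker named, *GL2*, did not overlap either but was near 0, at 0.0844 to 0.298 FPKM in S3_C, against 0 to 0.0786 FPKM in S3_S. Of the 5 markers of dividing cells, 0 had each S3_C library above each S3_S library. They summed to 15.8 to 18.2 FPKM in S3_C, against 16.7 to 27.8 FPKM in S3_S. *UXS6*, which supplies UDP-xylose for xylan and was kept out only by its KEGG pathway, was at 5.81, 5.24 and 3.02 FPKM in S3_C, against 0.931, 0.169 and 0.371 FPKM in S3_S. Its values were 5.41, 2.04 and 2.87 FPKM in S2, against 7.81, 4.91 and 4.72 FPKM in S1. The term lignin catabolic process was looked up after values were seen and is carried by 20 rows. Of these, 9 had each S3_C library above each S3_S library, the 2 chosen laccases included, against 24.4% of all genes above 0 in S3. The reverse was found for 0 of the 20, against 6.35%. For the 2 chosen laccases both outcomes were fixed by the rule, so these counts are no test. A mean of at least 1 FPKM in S3_C was reached by 9 of the 20 rows. The part of vein tissue in the levels of the 36 genes was not tested.

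**Figure D3:**
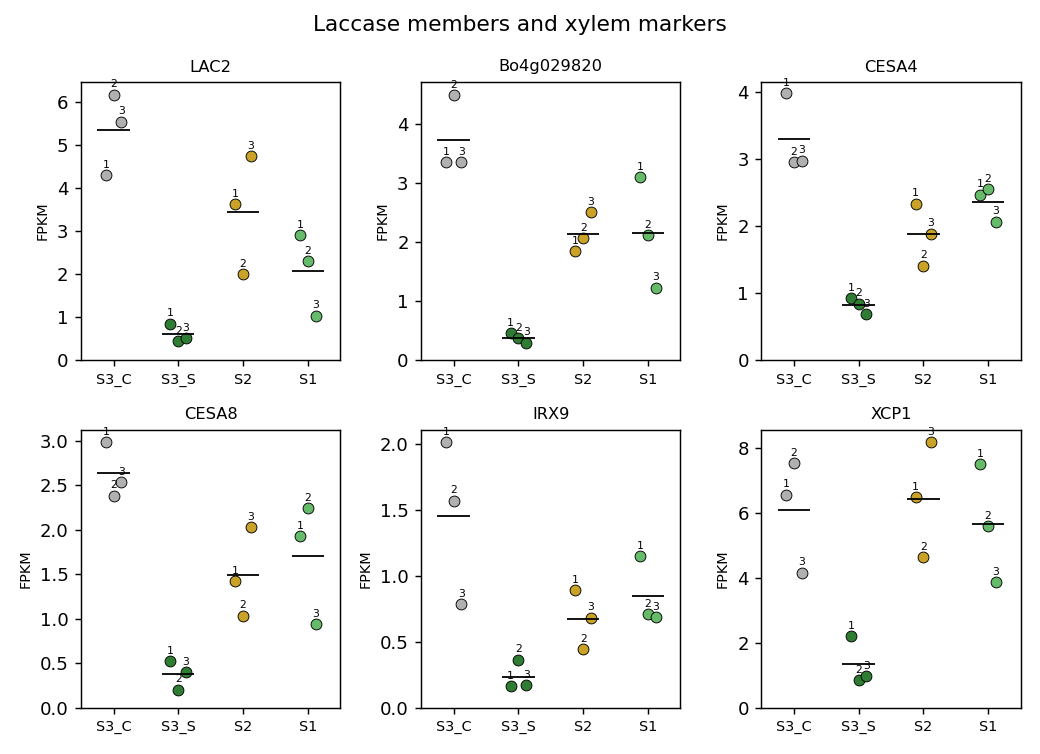
FPKM of the 2 laccases and of the 4 xylem markers in each library (points, numbered by replicate) of S3_C, S3_S, S2 and S1, with the group mean as a bar. In each panel the S3_S libraries are the lowest group, while S2 and S1 overlap.

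Several of the genes were annotated as transport proteins. *Bo1g010490*, described as a nucleotide-sugar transporter and annotated to the Golgi apparatus, where such carriers feed wall polysaccharide and glycoprotein synthesis, was at 15.6, 6.88 and 14.3 FPKM in S3_C, while it is listed at 0 in the 3 S3_S libraries. In S2 it was at 11.6, 14.2 and 10.2 FPKM, against 5.10, 6.11 and 3.88 FPKM in S1. It was thus transcribed in green S1 leaves, and S2 and S1 did not overlap. Its difference of 1.12 on the log2 scale, with a standard error of 0.23 (limma, adjusted p = 0.107), was under the threshold without the second S2 library (0.999), without the third S1 library (0.97) and after median-of-ratios scaling (0.65).

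*Bo7g101280* is annotated to sulfate transmembrane transport, the step by which sulfate enters cells and plastids. It was at 11.04, 12.2 and 3.67 FPKM in S3_C, against 0.581, 0.181 and 0.330 FPKM in S3_S, and at 3.41, 9.73 and 2.20 FPKM in S2, against 3.17, 1.91 and 2.08 FPKM in S1. The second S2 library was the highest and the third lay within the S1 values, and the log2 fold change of 0.67 (standard error 0.50, limma, adjusted p = 0.476) did not pass the threshold. *APK3*, an enzyme of sulfate activation kept out by its KEGG pathway, was at 10.7, 7.92 and 5.25 FPKM in S3_C, against 0.725, 0.495 and 0.360 FPKM in S3_S. In S2 it was at 7.87, 5.65 and 5.47 FPKM, against 3.01, 3.99 and 2.81 FPKM in S1.

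The 2 genes annotated to metal ion transport differed from each other. *Bo9g154220* was at 18.4, 3.35 and 3.51 FPKM in S3_C, against 0.320, 0.0365 and 0.228 FPKM in S3_S, and at 9.74, 4.28 and 2.17 FPKM in S2, against 10.0, 3.26 and 1.97 FPKM in S1. The high values of S3_C, S2 and S1 lay in 1 library each, and S2 and S1 overlapped. *Bo4g186490* was at 5.75, 4.05 and 4.62 FPKM in S3_C, against 0.628, 0.372 and 0.891 FPKM in S3_S. It was at 0.406, 0.587 and 3.20 FPKM in S2, against 0.339, 0.171 and 1.27 FPKM in S1, so that only the third library of each stage lay above 1 FPKM.

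Of the 2 kinases, *NIK2*, a receptor-like kinase named in *Arabidopsis* for the interaction of its family with a viral nuclear shuttle protein, was nearly constant in S1. It was at 5.87, 5.99 and 5.75 FPKM in S3_C, against 0.380, 0.581 and 0.740 FPKM in S3_S, and at 4.77, 1.38 and 2.53 FPKM in S2, against 1.94, 1.94 and 2.02 FPKM in S1. *Bo7g093410*, annotated to protein kinase activity, was at 6.26, 4.39 and 6.84 FPKM in S3_C, against 0.750, 0.267 and 0.359 FPKM in S3_S. In S2 it was at 4.68, 2.13 and 4.63 FPKM, against 2.69, 6.75 and 6.90 FPKM in S1, which makes it 1 of the 6 genes with a lower mean in S2. Neither passed the threshold between S2 and S1.

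Of the 9 genes past the threshold, 6 had neither a description nor a GO term or were annotated as membrane proteins only, among them the next 4 by size of change. *Bo1g098180* was at 4.80, 2.45 and 7.12 FPKM in S2, against 0.506, 0.946 and 0.387 FPKM in S1 (log2 fold change 1.77, adjusted p = 0.116 from limma). *Bo3g017470* was at 4.82, 2.31 and 2.26 FPKM in S2, against 0.0348, 0.339 and 0.224 FPKM in S1 (log2 fold change 1.74, adjusted p = 0.105 from limma). *Bo4g066990* was at 5.13, 3.03 and 5.97 FPKM in S2, against 1.04, 0.806 and 0.318 FPKM in S1 (log2 fold change 1.72, adjusted p = 0.107 from limma). For all 3 the S2 and S1 libraries did not overlap, and S1 overlapped the green margin. The rows of *Bo1g098180* and *Bo3g017470* include no reference transcript, so their values come from assembled transcripts alone.

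*Bo9g094080*, annotated as an integral membrane protein, was at 6.92, 7.82 and 3.60 FPKM in S2, against 1.52, 1.76 and 0.580 FPKM in S1 (log2 fold change 1.62, adjusted p = 0.120 from limma). MSTRG.13847, without a gene name, was at 2.45, 2.65 and 2.17 FPKM in S2, against 0.400, 0.307 and 0.186 FPKM in S1. It was the only 1 of the 9 that passed the threshold in each of the alternatives tried. *Bo3g009610* stands on 2 neighboring assembled genes that are both among the 36. The row without a reference transcript was at 4.70, 3.97 and 3.36 FPKM in S2, against 1.03, 1.36 and 0.865 FPKM in S1, and passed the threshold (log2 fold change 1.26), though not after median-of-ratios scaling or quantile normalization. The row with the reference transcript was at 8.99, 2.99 and 6.94 FPKM in S2, against 5.78, 3.06 and 3.84 FPKM in S1, with overlapping libraries (log2 fold change 0.42). These 2 rows may share reads of a single gene, and their values are uncertain as separate genes.

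The highest levels outside S3 were found for genes that varied widely between libraries of a group. *Bo8g108840*, described as a nucleotide/sugar transporter family protein, was at 4.96, 3.55 and 26.6 FPKM in S3_C, against 0.310, 0.446 and 0.0611 FPKM in S3_S. In S2 it was at 8.19, 155 and 1.04 FPKM, against 98.4, 2.83 and 179 FPKM in S1. The values of both stages spanned a wide range and overlapped, so its difference of −1.52 on the log2 scale was smaller than its standard error of 2.05 (limma, adjusted p = 0.673). *Bo5g054730* was at 14.7, 12.4 and 21.0 FPKM in S3_C, against 0.112, 0.293 and 0.0854 FPKM in S3_S. It was at 32.5, 18.3 and 16.3 FPKM in S2, against 4.41, 23.2 and 10.2 FPKM in S1, and thus was above 4 FPKM in each library outside the margin. A row with its reference transcript was at 0 to 0.302 FPKM in S3_S and passed 1 FPKM in 2 of the other 9 libraries, at 10.8 FPKM in the first S3_C library and 1.19 FPKM in the first S2 library.

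Besides *Bo1g010490*, 4 genes are listed at 0 in the 3 S3_S libraries, and each of these is also listed at 0 in 1 or more libraries of green S1 leaves. *Bo7g114510*, which has no annotation, was at 21.9, 29.8 and 26.1 FPKM in S3_C, the highest mean of the 36 in that tissue. It was at 10.9 FPKM in the second S2 library and at 28.4 FPKM in the first S1 library, and is listed at 0 in the other 4 libraries of these stages. *Bo8g101870*, annotated to the ribosome, was at 9.82, 9.98 and 4.88 FPKM in S3_C. It was at 4.30 FPKM in the second S2 library and at 4.45 and 10.3 FPKM in S1 libraries 1 and 3, with 0 in the others.

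The row of the C2H2-like zinc finger gene *Bo3g023500* listed at 0 in S3_S was at 4.995, 4.10 and 5.45 FPKM in S3_C. It was at 4.66 FPKM in the first S1 library and is listed at 0 in all 3 S2 libraries. Another row of the same name, outside the chosen genes, was above 0 in every library. That row was at 0.41 to 0.81 FPKM in S3_C, against 0.14 to 0.80 FPKM in S3_S, with overlapping libraries. Its values were 0.26 to 1.89 FPKM in S2, against 0.17 to 0.49 FPKM in S1. *Bo2g138720*, whose row includes no reference transcript, was at 5.80, 7.89 and 3.39 FPKM in S3_C. Its values were 6.68, 9.41 and 2.32 FPKM in S2, against 3.04, 10.1 and 0 FPKM in S1. For each of these 4 genes, the row listed at 0 in S3_S had green S1 libraries both at a listed 0 and above 3 FPKM. An exact 0 in a table of assembled transcripts can be a failed estimate, which was not tested.

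**Figure D4:**
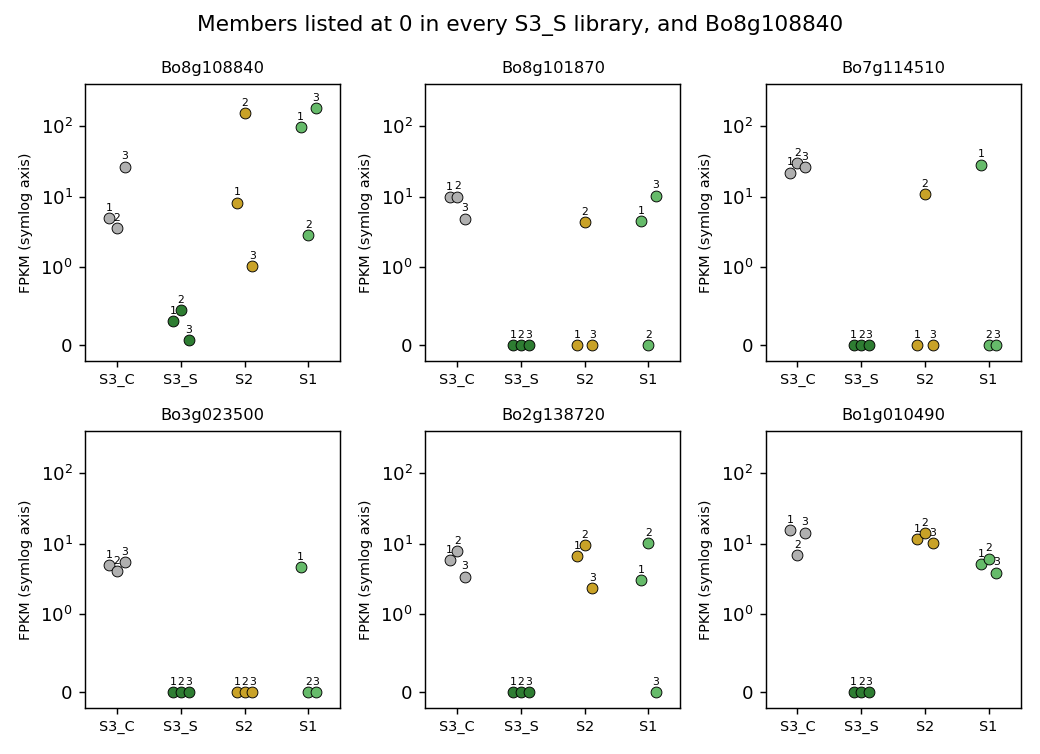
FPKM in each library (points, numbered by replicate) of S3_C, S3_S, S2 and S1, on an axis that is linear below 1 and logarithmic above, for *Bo8g108840* and the 5 genes listed at 0 in every S3_S library. *Bo8g108840* and *Bo8g101870* are high in the same 3 libraries of S2 and S1, while *Bo1g010490* is above 3 FPKM in all libraries but those of S3_S.

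Of the remaining annotated genes, *Bo4g120460*, described as a bifunctional inhibitor/lipid-transfer protein, was at 1.48, 0.0148 and 4.05 FPKM in S2, against 1.496, 3.09 and 0.0383 FPKM in S1. *Bo4g149420*, annotated as an integral membrane protein, was at 3.35, 2.17 and 2.82 FPKM in S2, against 3.41, 2.54 and 1.86 FPKM in S1, all above its S3_S values of 0.303 to 0.669 FPKM. Among the genes without annotation, MSTRG.35523 was at 4.15, 8.29 and 30.9 FPKM in S3_C, and at 1.06, 3.30 and 4.69 FPKM in S2, against 3.5, 1.499 and 0.0259 FPKM in S1. *Bo4g014520* shared its name with an assembled gene that includes the reference transcript and was at 10.8 to 13.9 FPKM in S3_C, against 6.66 to 8.49 FPKM in S3_S. The row of *Bo4g014520* that belongs to the 36 was at 3.43, 3.46 and 4.18 FPKM in S2, against 0.680, 1.99 and 1.55 FPKM in S1. Its libraries did not overlap, and it was just under the threshold at 0.9988 on the log2 scale (limma, adjusted p = 0.172). The remaining genes without annotation had S2 values of 0.159 to 6.75 FPKM, against 0 to 1.48 FPKM in S1, and did not pass the threshold.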

How the data were processed

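Poly(A) RNA of 12 leaf libraries was sequenced as pairs by the authors on an Illumina instrument. They removed reads of low quality, used HISAT for alignment to release 38 of the Ensembl Plants assembly of *B. oleracea* (up to 2 mismatches and 20 alignments per read), assembled and merged transcripts with StringTie and deposited FPKM per gene. The submitters' processing notes list HISAT2 2.0 and StringTie 1.3.0. Reads shared by near-identical copies can be split between rows, and no further scaling between libraries is stated. Labels gave groups and replicate numbers, and the paper calls the S3 replicates biological. For S1 and S2 p-values measure the spread between these libraries.

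S2 was set against S1 with limma 3.58.1 (lmFit, eBayes with a trend, two-sided) in R 4.3.3 on log2(FPKM + 1), over all genes above 0 in at least 1 of the 6 libraries, with Benjamini-Hochberg adjustment, and tested on simulated data. Fold changes on this scale understate changes of low genes. S3_C and S3_S chose the genes and were not tested. Relative depth rests on 44 to 61 genes with a single transcript per library and values under 0.1 FPKM. Summaries used Python 3.11.15 and pandas 2.3.3.

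The members and lists were chosen with earlier results of these data known. Named genes were to be the 10 highest in S3_C, the 5 largest changes past the threshold in each direction with libraries apart (none was lower in S2), the 5 highest in S1 and those at the limits of the rule. Genes named for their annotation were chosen after their values were seen. Of 15 word lists searched in the descriptions, 5 held a member and none more than 2, so no class of 3 or more could be named. Alternatives were quantile normalization or median-of-ratios scaling, a pseudocount of 0.1, a filter for a mean of 1 FPKM or more, a replicate block, a fit to all 12 libraries, ordinary linear models with and without the library-size covariate of Ballgown, each library left out, and other limits of the rule.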

Additional observations from a re-analysis of the deposited data

How the results depend on the processing

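The number of genes found by the rule depended on its limits, with 12 genes for S3_S under 0.5 FPKM, 6 for S3_C of at least 5 FPKM, 18 when libraries were scaled by median of ratios first, and 52 to 97 when a single S3 library was left out of the rule. The 9 genes higher in S2 became 9 to 14 when each S2 or S1 library was left out, with 14 without the second S2 library (38.9%, against 10.9% of all genes tested there), and 8 of the 9 were called in each of these fits, all but *Bo1g010490*. With genes of a mean of at least 1 FPKM, 9 of 32 genes passed, against 12.6% of the 24203 genes tested. Over the 36 genes the median log2 fold change was 0.69 as reported, 1.10 with a pseudocount of 0.1, 0.39 after median-of-ratios scaling, 0.32 after quantile normalization, 0.49 to 0.80 when each library was left out, and −0.43 in the linear model with the library-size covariate. In that model 3 genes were higher and 2 lower in S2, 1 of the 5 was among the 9, and fold changes changed sign for 21 of the 36 genes. Of the 10 among them that the rule for naming chose, *Bo8g108840* (13.44), *Bo8g101870* (6.66) and *Bo1g098180* (−0.48) passed the threshold in that model or as reported. Its covariate was higher in each S2 library (36071 to 38971) than in each S1 library (29486 to 31839). With all 12 libraries in the fit 11 genes came under an adjusted p of 0.05, against 8.52% of all genes tested, and 0 in the other fits. Equal replicate numbers did not pair the libraries. The correlation of deviations was −0.355 to 0.182 for equal numbers, against −0.374 to 0.439 for unequal numbers. With the replicate block 9 genes passed, the same 9. Read counts were not analysed here, so no counting error is given.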

Other observations

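*Bo8g108840* and *Bo8g101870*, noticed after their values were seen, were both high in S2 library 2 and in S1 libraries 1 and 3, and lower in the other 3 libraries of these stages. In the whole table, 3 rows were at 3 FPKM or more in those 3 libraries and over 10 times the highest value of the other 3, and 2 of these 3 rows were among the 36 genes. The mirror pattern, high in S2 libraries 1 and 3 and S1 library 2, was found for 6 rows, 5 of which are listed at 0 in the other 3 libraries, and for none of the 36 genes. The labels give no difference between these libraries within a stage.

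The opposite rule, all S3_C libraries under 1 FPKM and all S3_S libraries at 3 FPKM or more without a KEGG pathway, found 49 rows.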
